A study of Homo sapiens with 12 samples.

Results

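The comparison described here set the polysome-associated RNA of BT549 cells made to overexpress TRMT112 (OE) against that of BT549 cells carrying an empty vector (EV). Of the 24559 gene symbols in the table, the 11864 whose mean across the 4 BT549 libraries reached 50 counts were described, out of 16538 genes that entered the test. Within these 11864 genes, 86 had at most 3 counts in both EV libraries and at least 100 in both OE libraries, and 64 showed the opposite pattern. The study asked how the level of TRMT112 shapes translation in triple-negative breast cancer (TNBC), and sequenced 12 libraries, 2 for each of 6 groups. The other 8 libraries were of MDA-MB-231 and SUM159, both TNBC lines, with an empty vector or with TRMT112 knockdown (KD).

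BT549 is an established human mammary cell line of the triple-negative type, which lacks the oestrogen and progesterone receptors and HER2 amplification. The OE cells had been transfected with an expression clone of the TRMT112 open reading frame and the EV cells with the matching empty plasmid, and both had been selected with G418, so that the controls shared transfection and selection with the OE cells. The labels list no treatment, and the study's methods describe a short exposure to cycloheximide, which holds ribosomes on mRNA, before lysis. The promoter that drives the clone is not given in the sources used here, and neither is whether a population grew from 1 clone or many. Each group was 1 engineered population with 2 libraries, and the labels do not say that the 2 came from separate cultures. The p-values below therefore measure only the spread between these libraries, and what followed from the transgene cannot be told apart from any other difference between the 2 populations. Lysates had been run on sucrose gradients and the fractions with mRNA bound by several ribosomes pooled, and no libraries of total RNA were used here, so more mRNA and more ribosomes per mRNA cannot be told apart. In the same way, in bulk RNA, more cells of a kind and more RNA per cell cannot be told apart.

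TRMT112 is a small protein without catalytic activity of its own that binds and stabilises several methyltransferases. With BUD23 and METTL5 it modifies 18S rRNA, with TRMT11, THUMPD2, THUMPD3 and ALKBH8 it acts on tRNA or on spliceosomal RNA, and with N6AMT1 it methylates a translation release factor. Through the first of these it takes part in the making of the small ribosomal subunit, and mRNAs read by many ribosomes at once sediment as polysomes.

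The libraries were of similar depth. The EV libraries held 24541477 and 24223605 expected counts and the OE libraries 24126325 and 23204174. An expected count is the estimated number of reads of a transcript when reads shared by several transcripts are divided among them. Values called normalized counts below are counts scaled by TMM (trimmed mean of M values) to the mean effective library size. The median absolute log2 difference between the replicates of a gene was 0.067 in EV and 0.074 in OE, and the median absolute log2 fold change between the groups was 0.57.

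TRMT112 (chr11:64316460-64317559, minus strand, GRCh38) had 2770.3 and 2781 normalized counts in the EV libraries and 3860.2 and 3891 in the OE libraries. Both OE libraries lay above both EV libraries. The log2 fold change was 0.48 ± 0.04 (SE, n = 2 libraries per group), with an adjusted p = 1.5e-10 by edgeR's quasi-likelihood test with Benjamini-Hochberg adjustment over the 16538 genes, which holds for every adjusted p below. Of the 6 TRMT112 transcripts listed, 1 carried most of the reads, with 2586 and 2545 counts in EV and 3462 and 3430 in OE. These counts do not separate the transgene from the endogenous gene. Among its 7 partners, 5 rose and 2 fell, all by less than 2-fold. METTL5, the partner that makes the N6-methyladenosine of 18S rRNA, had 618 and 579 normalized counts in EV and 1094 and 1194 in OE, a log2 fold change of 0.93 ± 0.07 (adjusted p = 9.4e-12). BUD23, which makes the N7-methylguanosine of 18S rRNA, rose by 0.20 on the log2 scale, N6AMT1 by 0.49, THUMPD2 by 0.52 and THUMPD3 by 0.17. The tRNA methyltransferases TRMT11 and ALKBH8 had log2 fold changes of -0.30 and -0.42. Of the 8 genes, only METTL5 changed by more than the median absolute change of the 11864 genes, and TRMT112 itself and the other partners changed by less.

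Most genes differed between EV and OE by more than their replicates did. By the test, 4795 of the 11864 genes were higher in OE (40.4%) and 4954 were lower (41.8%), 82.2% in all. Requiring also a change of at least 2-fold left 1618 higher (13.6%) and 1719 lower (14.5%), 28.1% in all. The libraries of the 2 groups did not overlap for 90.8% of the genes. Over all 16538 genes tested, 70.6% were called, 35.6% higher and 35.0% lower, and with the 2-fold limit 16.1% were higher and 15.2% lower. The median log2 fold change of the 11864 genes was -0.02, with quartiles of -0.59 and 0.55. TMM scaling itself places the centre of the fold changes near 0. At least 4-fold changes were called for 571 genes upwards and 664 downwards, and at least 16-fold changes for 233 and 248. At the other end, the log2 fold change of 2806 genes (23.7%) lay within 0.25 of 0. These shares are the background for the gene groups that follow.

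**Figure D1:**
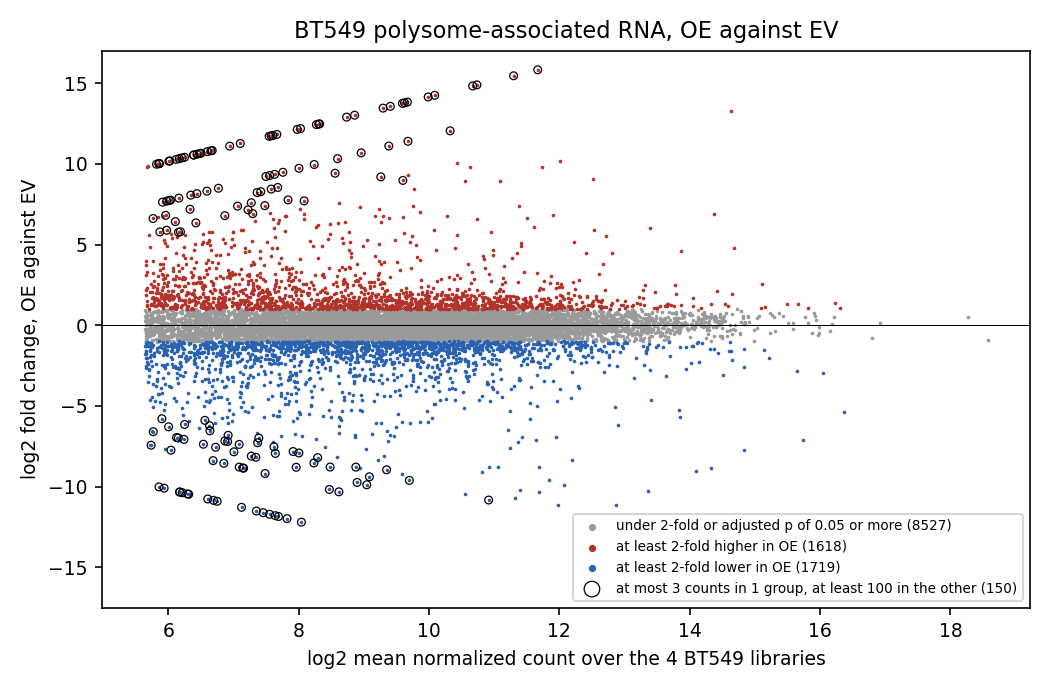
Each point is 1 of the 11864 genes, with the log2 of its mean normalized count over the 4 BT549 libraries on the x axis and its log2 fold change, OE over EV, on the y axis. TMM scaling sets the centre of the points near 0 (median -0.02), with 1618 called at least 2-fold higher, 1719 called at least 2-fold lower, and the 86 and 64 genes near 0 counts in 1 group at the edges.

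The 86 genes at most 3 counts in EV were chosen by this very contrast (0.725% of the 11864), so their values are a description and no test is given. In OE their mean normalized count ran from 108 to 6510.3, with a median of 320.2, and 16 exceeded 1000. In EV, 42 of them had 0 counts in both libraries, and their folds were then at least 38.0 to at least 2188, taken against a floor of 3 counts per library. These floors and intervals cover counting error only. INHBB, which encodes the beta B subunit of activins and inhibins, had 0 counts in both EV libraries and 6604 and 6310 in the OE libraries, at least 2188-fold higher. ELN, the elastin of elastic fibres, had 0 in both EV libraries and 5077 and 4915 in OE, and GPC4, a cell-surface heparan sulfate proteoglycan, 0 in EV against 3434 and 3330. ALPL, the tissue-nonspecific alkaline phosphatase of mineralising cells, had 0 counts in EV and 3411 and 3056 in OE, at least 1095-fold higher. For each of these 4 genes the OE libraries differed from each other by far less than from EV.

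Genes seen in OE alone, or in EV alone, are here and below those with at most 3 counts in each library of the other group. Several of the other genes seen in OE alone also act in the matrix or at the cell surface. HS6ST2, a heparan sulfate 6-O-sulfotransferase, had 0 counts in both EV libraries and 2293 and 2024 in OE, and ST8SIA2, a polysialyltransferase, 0 in EV against 2058 and 1969. ITGA11, a collagen-binding integrin, went from 0 to 1658 and 1572, MFAP5, a microfibril protein, to 1662 and 1472, and TIMP3, an inhibitor of metalloproteinases held in the matrix, to 1605 and 1461. IQGAP2, a scaffold protein related to IQGAP1, had 1 and 0 counts in EV and 2451 and 2631 in OE, a ratio of 5167 whose 95% counting interval, 927 to 204132, is wide because EV held 1 read. ZNF521, a zinc finger cofactor of stem and progenitor cells, had 1 and 0 against 1652 and 1596, and LBH, a transcriptional cofactor known from mammary stem cells, 3 and 3 against 1542 and 1529, a ratio of 520.4 with an interval of 239 to 1419. These 12 genes had the largest folds when each low group was set to the floor of 3 counts per library, which is not the order of the count ratios.

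The 64 genes at most 3 counts in OE (0.539% of the 11864) are described in the same way. In EV their mean normalized count ran from 106 to 3861, with a median of 275, and 18 had 0 counts in both OE libraries, where the fold was at least 38.3 to at least 174. CMPK2, an interferon-induced mitochondrial nucleotide kinase, had 3783 and 4002 counts in EV and 2 and 2 in OE, a ratio of 1914 with a 95% counting interval of 747 to 7027. CASP4, an inflammatory caspase that senses lipopolysaccharide, had 1660 and 1688 against 2 and 2, and CASP1, the caspase that matures interleukin 1 beta, 289 and 257 against 1 and 2. IFIH1 (MDA5), a cytosolic sensor of double-stranded RNA, had 1163 and 1027 counts in EV and 2 and 1 in OE, and IFI16, a sensor of DNA, 958 and 964 against 1 and 1. The interferon-induced genes HERC6 (1093 and 1037 counts in EV), GBP4 (831 and 754) and SAMD9L (676 and 764) had between 0 and 3 counts per OE library. Both EV libraries lay close together for each of them. Where values stand as a pair against a pair, here and below, the EV libraries come first.

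Not every gene seen in EV alone is known from interferon responses. KLHDC7B, a kelch domain protein, had 1333 and 1294 counts in EV and 2 and 3 in OE. SLC6A15, a neutral amino acid transporter, had 899 and 994 against 2 and 2, CYP4V2, a fatty acid hydroxylase, 706 and 725 against 1 and 0, and RPRM, a p53-induced inhibitor of the cell cycle, 640 and 620 against 3 and 1. ITGB4, the integrin of hemidesmosomes, had 615 and 597 counts in EV and 3 and 0 in OE. The tight junction gene OCLN (408 and 395 in EV, 0 and 3 in OE), the desmosomal PKP3 (126 and 159, 2 and 0) and the imprinted lncRNA MEG3 (259 and 258, 1 and 1) followed the same pattern. Protein-coding genes made up 85 of the 86 and 58 of the 64, and lncRNAs 0 and 5. Among all genes called at least 2-fold higher in OE, 8.22% were lncRNAs, against 2.50% of those at least 2-fold lower and 3.88% of the 11864.

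**Figure D2:**
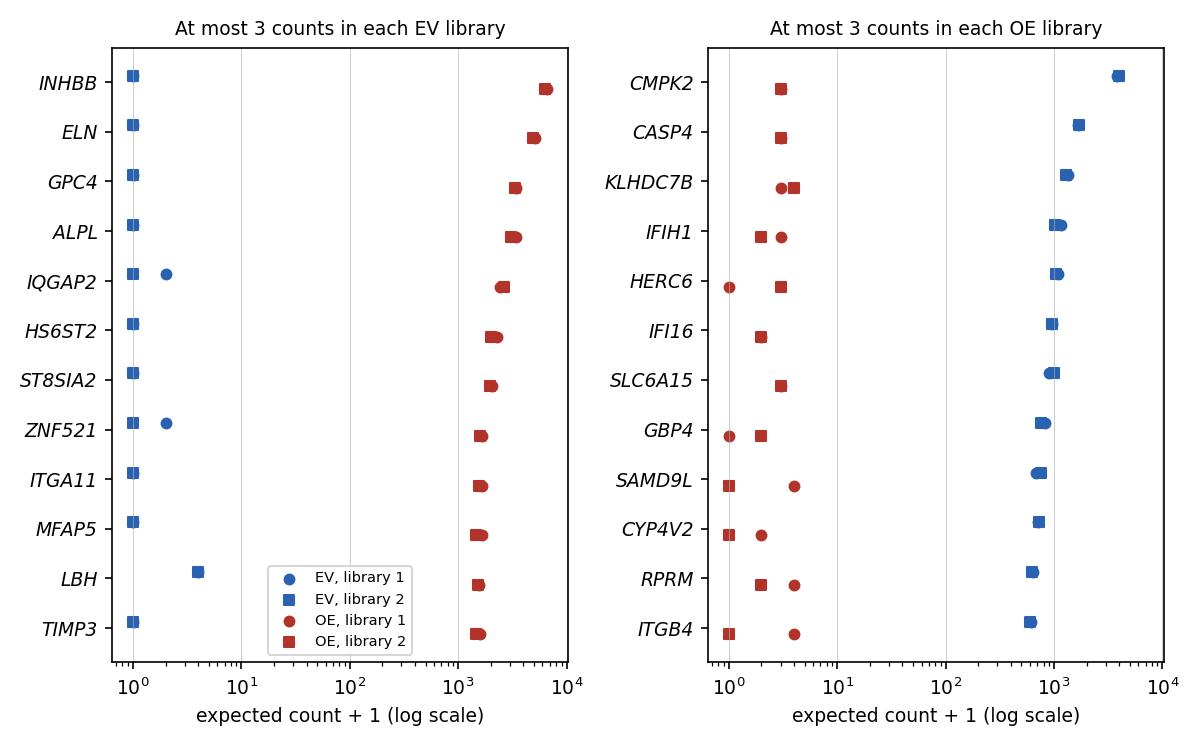
Expected counts plus 1, on a log axis, of the 12 genes with the largest folds over a floor of 3 counts among those with at most 3 counts in EV, and of the 12 among those with at most 3 in OE, with 1 point per library. The low group lies at 0 to 3 counts, whereas the other group runs from 597 counts (ITGB4) to 6604 (INHBB).

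The limits of 3 and 100 counts cut through a continuum. IGF2 (3 and 1 counts in EV, 140 and 106 in OE) and TMEM26 (3 and 2, 128 and 150) lay just inside, and SPSB4 (4 and 2, 111 and 126) and RORA (1 and 4, 113 and 142) just outside. In the other direction EVI2A (185 and 190 in EV, 3 and 3 in OE) lay just inside, and POU4F2 (113 and 102, 4 and 4) and LRRC2 (114 and 127, 2 and 4) just outside. A few of the largest changes of all fell outside because the low group kept some reads, and they are named here after their values were seen. CHI3L1, a secreted chitinase-like glycoprotein, had 4 and 6 counts in the EV libraries and 51851 and 48801 in the OE libraries. MXRA8, a matrix-remodelling protein and alphavirus receptor, had 7 and 7 against 8515 and 7926, and HSPB6, a small heat shock protein of muscle, 10 and 5 against 6894 and 6540. In the other direction the neurotensin receptor gene NTSR1 had 3033 and 3023 counts in EV and 4 and 0 in OE, the oxytocin receptor gene OXTR 6373 and 6380 against 47 and 42, and the neuronal kinesin gene KIF5C 6516 and 6739 against 16 and 14.

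Some of these genes were neighbours in the genome. Of the 86, 17 had another of them within 1 Mb, in 9 pairs, and of the 64, 12 did, in 6 pairs. HOXA3, HOXA5 and HOXA7 lie side by side on chromosome 7, and HOXA7 had 0 counts in both EV libraries and 565 and 472 in OE. DLX6 (chr7:97005553-97011040) and DLX5 (chr7:97020396-97024950), homeobox genes of bone and limb, lie 9.36 kb apart, with 0 counts each in EV. In OE, DLX6 had 181 and 164 counts and DLX5 116 and 115. HS6ST2 and GPC4 lie 339 kb apart on chromosome X. Among genes seen in EV alone, IFIH1 (chr2:162267074-162318684) and GCA (chr2:162318840-162371595), a calcium-binding protein of granulocytes, lie head to head with 0.156 kb between them, and CASP4 and CASP1 lie 56.0 kb apart on chromosome 11. HLA-F and the pseudogene HLA-H share sequence, and WT1 overlaps its antisense gene WT1-AS. Since strand handling in counting is not given in the sources used here, reads from such partners cannot be told apart.

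The promoters were described by their letters, with no test. Windows of 300 bases, from 250 before to 50 after the start of each gene's most counted transcript, were searched on both strands for GAAA, 2 bases of any kind and GAAA again, the core of the interferon-stimulated response element that interferon-activated factors bind, or its reverse complement (TTTC, 2 bases and TTTC). The letters were found in 2.81% of the 11864 windows, in 6.40% of those of genes called at least 2-fold lower in OE and in 2.10% of those at least 2-fold higher. They were in 9 of 64 genes seen in EV alone (14.1%), in 3 of 86 seen in OE alone (3.49%) and in 33 of 52 genes of an interferon-stimulated list described below (63.5%). Outside that list the share among genes at least 2-fold lower was 4.62%. Of all promoter windows in RefSeq, 1 per symbol, 3.65% held the letters. A match is a description of the sequence only. The RefSeq windows of 4 genes that fell, 3 of them to at most 2 counts per library, follow here from 5′ to 3′ on the strand of the gene, with the matching letters in capitals. From that list come RTP4, a receptor-transporting protein induced by interferon (chr3:187368135-187368434, plus strand), IFIH1 (chr2:162318635-162318934, minus strand) and IFI6, an interferon-induced inhibitor of cell death (chr1:27672143-27672442, minus strand). The chemokine gene CXCL10 (chr4:76023448-76023747, minus strand) belongs instead to the list of NF-kB targets, cytokines and chemokines. All windows are in GRCh38.p14.
RTP4: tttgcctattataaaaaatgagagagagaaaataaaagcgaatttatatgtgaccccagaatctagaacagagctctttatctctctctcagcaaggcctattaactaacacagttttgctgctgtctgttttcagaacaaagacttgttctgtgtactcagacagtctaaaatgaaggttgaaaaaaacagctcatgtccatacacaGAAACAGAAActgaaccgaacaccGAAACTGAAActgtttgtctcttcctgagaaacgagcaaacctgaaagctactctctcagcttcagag
IFIH1: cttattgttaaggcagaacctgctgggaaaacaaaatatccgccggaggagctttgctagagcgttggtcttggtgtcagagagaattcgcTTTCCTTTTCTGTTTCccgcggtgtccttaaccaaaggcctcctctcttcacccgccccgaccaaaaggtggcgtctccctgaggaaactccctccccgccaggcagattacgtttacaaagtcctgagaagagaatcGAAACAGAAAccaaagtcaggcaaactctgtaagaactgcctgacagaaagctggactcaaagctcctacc
CXCL10: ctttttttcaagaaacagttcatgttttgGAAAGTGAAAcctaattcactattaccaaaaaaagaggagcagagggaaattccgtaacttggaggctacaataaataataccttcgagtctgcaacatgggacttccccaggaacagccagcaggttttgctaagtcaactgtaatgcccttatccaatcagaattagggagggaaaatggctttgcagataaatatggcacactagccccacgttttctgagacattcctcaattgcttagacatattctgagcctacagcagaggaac
IFI6: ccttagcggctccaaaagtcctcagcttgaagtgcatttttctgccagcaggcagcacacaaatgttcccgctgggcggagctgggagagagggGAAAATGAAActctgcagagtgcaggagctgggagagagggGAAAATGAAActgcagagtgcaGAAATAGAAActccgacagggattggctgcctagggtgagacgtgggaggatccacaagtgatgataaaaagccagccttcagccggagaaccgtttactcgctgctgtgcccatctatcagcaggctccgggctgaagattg
The RTP4 window held 2 matches, that of IFIH1 3, that of CXCL10 1 and that of IFI6 3. RTP4 had 394 and 439 counts in EV and 0 and 0 in OE, CXCL10 303 and 267 against 1 and 0, and IFI6 112287 and 107130 against 832 and 738.

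The same windows were searched for CpG dinucleotides, the sites at which DNA can be methylated. The median window of the 11864 genes held 28 CpG sites and 66.5% G and C. Genes seen in OE alone were close to that, with 28.5 sites and 69.0%, whereas genes seen in EV alone had 19.5 sites and 62.7%, and the interferon-stimulated list 7.5 sites and 54.2%. DNA methylation was not measured. The RefSeq windows of INHBB (chr2:120345886-120346185, plus strand) and GPC4 (chrX:133415440-133415739, minus strand), 2 of the genes with the most counts among those seen in OE alone, follow with CG in capitals.
INHBB: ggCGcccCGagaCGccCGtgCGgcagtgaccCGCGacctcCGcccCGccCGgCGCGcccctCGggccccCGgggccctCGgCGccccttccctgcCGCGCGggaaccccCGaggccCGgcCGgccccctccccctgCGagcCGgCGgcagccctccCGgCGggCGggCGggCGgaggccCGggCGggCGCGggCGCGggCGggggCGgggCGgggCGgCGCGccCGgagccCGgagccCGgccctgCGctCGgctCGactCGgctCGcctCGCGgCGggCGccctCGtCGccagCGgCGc
GPC4: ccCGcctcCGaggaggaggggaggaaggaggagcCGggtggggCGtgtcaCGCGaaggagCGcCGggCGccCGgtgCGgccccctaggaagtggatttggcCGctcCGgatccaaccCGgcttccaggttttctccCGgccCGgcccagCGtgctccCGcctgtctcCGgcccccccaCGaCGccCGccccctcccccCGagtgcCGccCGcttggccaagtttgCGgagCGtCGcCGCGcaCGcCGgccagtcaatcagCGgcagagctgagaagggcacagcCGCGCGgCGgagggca
They held 58 and 37 CG dinucleotides, both above the median of 28.5 for genes seen in OE alone. The RefSeq table had a window for 62 of the 86 genes, 43 of the 64 and 43 of the 52.

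Interferon-stimulated genes were the group with the lowest median. Of 52 such genes among the 11864, 51 fell, all of them at least 2-fold, and the median log2 fold change was -6.28. Only 22 of the 52 had at least 50 normalized counts in both groups. The others could reach the mean through EV, so the share and median depend on that limit. OAS2, which makes the second messenger that activates RNase L, had 8189 and 8148 counts in EV and 3 and 4 in OE, RSAD2 (viperin) 5100 and 5243 against 4 and 2, and IFI27 15528 and 14697 against 3 and 10. EPSTI1, induced by interferon and in stroma, fell from 4585 and 4756 normalized counts to 53.9 and 47.9 (log2 fold change -6.52 ± 0.09, adjusted p = 1.8e-25), and UBE2L6, the conjugating enzyme for ISG15, from 7719 and 7902 to 49.9 and 78.5 (-6.93 ± 0.08, adjusted p = 6.9e-27). The exception was MX2, an antiviral GTPase, with 913 and 987 normalized counts in EV and 1209 and 1085 in OE, a rise of 0.27 ± 0.08 (adjusted p = 0.0044). For 51 of the 52 genes both OE libraries thus lay well under both EV libraries.

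Receptors and sensors of the interferon pathway moved unevenly. Of 28 genes, 23 fell, 2 rose and 3 did not pass the test, with a median of -1.33. The sensors RIGI (1389.6 and 1645 normalized counts in EV, 12 and 35.7 in OE) and TLR3 (323 and 369, 6.98 and 6.12) fell with IFIH1, and so did the transcription factors IRF7 (log2 fold change -4.06), IRF1 (-3.01) and STAT2 (-2.42). Among the receptor genes, IFNAR1 had 1004 and 1044 normalized counts in EV and 1162 and 1084 in OE and rose by 0.13, while IFNAR2 (-0.0030), IFNGR2 (-0.13) and IRF3 (-0.06) did not pass the test.

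Genes of MHC class I presentation, which displays peptides to cytotoxic T cells, fell in 18 of 20 cases, 2 rose, and the median was -2.67. Reads of the HLA genes and pseudogenes are shared and their split is uncertain. B2M, the light chain of all class I molecules, which has no near copy, fell from 61310.1 and 61084 to 15217 and 15419.6 (-2.00 ± 0.02, adjusted p = 1.1e-26). TAP1, a subunit of the peptide transporter, fell from 21243 and 20396 to 821 and 837, and NLRC5, the transactivator of class I genes, from 1529.6 and 1447 to 123 and 98.9. The chaperones calreticulin (CALR, -0.36), calnexin (CANX, 0.18) and PDIA3 (1.36), which serve many other glycoproteins, changed less or the other way. No gene of MHC class II passed a mean of 50 counts.

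Among 17 targets of NF-kB, cytokines and chemokines, 12 fell and 5 rose, with a median of -1.60. CCL5 had 7611 and 7245 counts in EV and 13 and 6 in OE, the mitochondrial superoxide dismutase gene SOD2 fell from 88303 and 90614 normalized counts to 12295 and 12851 (-2.83), and NFKBIA, the inhibitor that NF-kB itself induces, from 1959 and 1963 to 385 and 415 (-2.29). CCL2, a chemokine for monocytes, went the other way with 0 counts in both EV libraries and 617 and 652 in OE, at least 215-fold higher, and the adhesion receptor gene ICAM1 rose from 374 and 397 to 800.0 and 818.

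The matrix genes rose as a rule, but not in each class. Of 31 genes of elastic fibres and matricellular proteins, 27 rose and 4 fell, with a median of 1.89, and 23 rose at least 2-fold. Only 22 of the 31 had at least 50 normalized counts in both groups. Genes low in EV could reach the mean through OE alone, so such shares and medians depend on that limit. POSTN (periostin) had 12 and 6 counts in EV and 4328 and 4333 in OE, MFAP4 0 and 5 against 1660 and 1577, and the small proteoglycan decorin (DCN) 0 in both EV libraries and 162 and 170 in OE. The exceptions were FBLN2 (fibulin 2), which fell from 9659 and 9335 normalized counts to 687 and 618 (-3.86 ± 0.06, adjusted p = 5.4e-25), CCN3 (-3.00), fibronectin (FN1, -0.96) and tenascin C (TNC, -0.57). Of 16 collagens outside basement membranes, 11 rose, 2 fell and 3 did not pass the test, with a median of 1.60. At least 50 normalized counts in both groups were reached by 12 of the 16. COL3A1 had 29 and 15 counts in EV and 11714 and 11554 in OE, and COL12A1 rose from 394 and 387 normalized counts to 3612 and 3377. COL15A1 fell from 1640.1 and 1653 to 27.9 and 22.4 (-6.02), and COL13A1 from 283 and 339 counts to 1 and 1. Of 18 genes that process or crosslink collagen, 15 with at least 50 normalized counts in both groups, 16 rose, 1 fell and 1 did not pass the test. Their median was 1.05. Among them lysyl oxidase (LOX) had 1347 and 1337 normalized counts in EV and 6904 and 6738 in OE, LOXL1 31.6 and 27.9 against 1603 and 1468, and the collagen chaperone SERPINH1 8012 and 7783 against 19376 and 18719.9.

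Basement membrane genes did not share that direction: of 16, 6 rose, 7 fell and 3 did not pass the test, with a median of -0.14. LAMA3, a laminin chain of epithelia, fell (1649.9 and 1719 normalized counts in EV, 86.8 and 117 in OE), while the muscle laminin chain LAMA2 (52.3 and 68.8, 316 and 356) and perlecan (HSPG2, 52.3 and 59.8, 667 and 634) rose. Matrix proteases and their inhibitors were also split, with 11 of 26 higher and 13 lower, and a median of -0.28. MMP2 had a log2 fold change of 2.33 and MMP1 one of -3.10. CTSB, a lysosomal protease and one of the most counted genes, fell from 507459 and 512382 normalized counts to 272473 and 264806 (-0.92). Of 17 syndecans, glypicans and hyaluronan genes, 13 rose and 3 fell, with a median of 0.80. Syndecan 3 (SDC3) rose from 229.8 and 282 to 4716 and 4631, and the hyaluronan synthase gene HAS2 from 144 and 132 to 756 and 681.

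Surface receptors for the matrix changed in both directions. Of 12 integrins, 6 rose and 6 fell, and all 6 that fell did so at least 2-fold. ITGA3, a laminin-binding chain, fell from 6223 and 6346 normalized counts to 198 and 198 (-4.99), and ITGA6, which also binds laminin, from 1761 and 1837 to 169.6 and 172 (-3.40). ITGA5, the fibronectin receptor chain, fell from 4898 and 4809 to 453 and 468 (-3.40). Besides ITGA11, ITGB8 rose from 10.8 and 18 to 1174 and 1259 (6.39), and the common chain ITGB1 changed by 0.31. Of 28 keratins and epithelial junction genes that entered the test, 9 reached a mean of 50 counts. Of these 9, 8 fell and 1 did not pass the test, with a median of -4.07. Only 4 of the 9 had at least 50 normalized counts in both groups. Genes low in OE could reach the mean through EV alone, so this share and median depend on that limit. KRT7 fell from 1350.1 and 1338 to 86.8 and 72.4 (-4.07), CLDN1 from 1490.2 and 1450.2 to 229 and 193 (-2.80), and desmoplakin (DSP) from 80 and 167 counts to 1 and 0. Of 15 cadherins, 8 rose, 4 fell and 3 did not pass the test. P-cadherin (CDH3) fell from 3591 and 3417 to 270.3 and 305, whereas N-cadherin (CDH2), a mesenchymal marker, had 964 and 991 in EV and 995 and 1082 in OE and did not pass the test.

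Contractile genes were among the largest rises between genes well counted in both groups. Of 20, 13 rose, 12 of them at least 2-fold, and 6 fell, with a median of 1.24. TAGLN (transgelin) had 362 and 357 normalized counts in EV and 42536 and 41725 in OE (6.87 ± 0.04, adjusted p = 1.1e-31). The myosin light chain gene MYL9 had 323 and 318 against 21779 and 20410.3 (6.04 ± 0.05, adjusted p = 5.4e-29), and smooth muscle actin (ACTA2) 289 and 287 against 13456 and 12967 (5.52 ± 0.05, adjusted p = 3.7e-28). Vimentin (VIM), the intermediate filament of mesenchymal cells, fell from 42631 and 42760.0 to 15718 and 15150.5 (-1.47). Desmin (DES) had 0 counts in both EV libraries and 117 and 89 in OE. The 9 transcription factors of epithelial-mesenchymal transition were evenly split, 3 higher, 3 lower and 3 not past the test, with SNAI1 at 9 and 12 counts in EV and 143 and 143 in OE and ZEB1 at a log2 fold change of -1.11. Of 18 YAP-TEAD targets 9 rose and 8 fell. CCN2 rose by 2.66, and NT5E, the ecto-nucleotidase CD73, fell from 16474 and 16439 to 1699.7 and 1678.

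Other rises among genes with at least 50 normalized counts in both groups were led by NDRG1, a stress-induced growth regulator (67.1 and 64.8 normalized counts in EV, 7821 and 7380.5 in OE), the secreted OLFM2 (log2 fold change 6.64), HAPLN3, a link protein of hyaluronan (6.08), BCAM, a laminin receptor (5.76), ARHGAP24, a GTPase-activating protein for Rac (5.62), and MFGE8, a secreted bridge to apoptotic cells (5.17). The falls included the neuronal ubiquitin hydrolase UCHL1 (15225 and 14887 normalized counts in EV, 202 and 218 in OE), the apolipoprotein gene APOL6 (-5.79) and LY6E, an interferon-induced surface protein (-5.40). All were called with groups that did not overlap.

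Signalling genes gave no common direction. Of 35 genes of the TGF-beta, activin and BMP pathway, 10 rose and 19 fell, with a median of -0.18. Besides INHBB, the follistatin-like gene FSTL1 rose from 28893 and 29584 normalized counts to 73444 and 74361 (1.34), whereas the ligand genes BMP4 (1109 and 1082 in EV, 111 and 94.8 in OE) and TGFB1 (2612 and 2584, 1170.0 and 1210.2) and the receptor gene TGFBR2 (2536 and 2552, 806 and 788) fell. Of 31 WNT and Notch genes 12 rose and 15 fell, 7 and 10 of them at least 2-fold. The WNT inhibitor gene DKK1 fell from 1404 and 1459 to 68.8 and 72.4, the receptor gene FZD2 fell from 7609.6 and 7832 to 513 and 482, and FZD1 rose from 295 and 295 to 2938 and 2944. Of 23 receptor tyrosine kinases 8 rose, all at least 2-fold, and 14 fell, 5 of them at least 2-fold. PDGFRA rose from 6 and 7 counts to 216 and 237, FGFR1 from 8093 and 7914 normalized counts to 26467 and 25566 (1.70), and FGFR2 fell from 1554 and 1631 to 279 and 260.0 (-2.56), while MET did not pass the test (-0.04). Of 21 growth factor genes 9 rose and 11 fell, with HBEGF at 31 and 15 counts in EV and 744 and 837 in OE, and betacellulin (BTC) at 118 and 129 against 0 and 0.

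Transcription factors that mark lineages included some of the genes seen in 1 group alone. Of 43, 14 rose, 12 of them at least 2-fold, and 23 fell, 18 of them at least 2-fold, with a median of -0.49. PAX9, of the pharyngeal pouches and teeth, had 0 and 1 counts in EV and 622 and 576 in OE, HAND2, of heart and limb, 14 and 16 against 1556 and 1492, and MEOX2, of somites, 11 and 12 against 1290 and 1170. GATA3, which marks luminal mammary cells, fell from 1263 and 1223 normalized counts to 162 and 139.7 (-3.04), and TFAP2C from 609 and 625 counts to 6 and 3. HOX genes, which encode position along the body axis, are given by cluster. Of 32 HOX genes that entered the test, 21 reached a mean of 50 counts, and 17 of these had at least 50 normalized counts in both groups. All 6 HOXA genes among the 21 rose, 3 of them from 0 counts. Those 3 reached the mean through OE alone, so the share of HOXA genes that rose depends on that limit. Of 7 HOXB genes 1 rose and 4 fell, and of 8 HOXC genes 1 rose and 7 fell, with a median of -1.17. HOXC12 fell from 1075 and 1045 to 222 and 159 and HOXC13 from 938 and 1021 to 396 and 337, while HOXB8 rose from 104 and 109 to 529.6 and 464.

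The genes of the translation machinery moved by small amounts, most of them upwards. Of 79 cytosolic ribosomal protein genes, 64 rose, 9 fell and 6 did not pass the test, with a median of 0.46, and 8 rose at least 2-fold while 0 fell that far. RPL4 had 11734 and 11662 normalized counts in EV and 29433 and 29146 in OE (1.32 ± 0.02, adjusted p = 8.2e-23), and RPS2 13846 and 13809.5 against 34799 and 32988 (1.29 ± 0.03, adjusted p = 1.1e-20). Ribosomal protein genes have many processed pseudogenes, so part of their reads may be assigned elsewhere. Of 76 genes of rRNA processing and ribosome assembly, 47 rose and 18 fell, with a median of 0.42. UTP4 rose from 1063 and 1148 to 3297 and 3108 and NIP7, of 60S assembly, from 1931 and 1988 to 5252 and 5078, whereas RRP1 fell from 6212 and 5874 to 2504 and 2418. Of 52 initiation, elongation and release factors, 37 rose and 9 fell, with a median of 0.43. EIF4A1, the helicase of cap-dependent initiation, rose from 22998 and 22611 to 50649.7 and 49711 (1.14 ± 0.02, adjusted p = 5.9e-22), and EIF5A, which helps ribosomes through proline stretches, from 42480.3 and 41888 to 112439 and 109363 (1.39 ± 0.02, adjusted p = 2.9e-23). EIF4EBP1, the repressor of the cap-binding protein, rose by 0.84 and the elongation factor EEF1A1 by 0.55, while EIF4E, the cap-binding protein, and EIF2S1, the alpha subunit of eIF2, had log2 fold changes of -0.35 and -0.45. EEF1A2, the form of neurons and muscle, had 7 and 2 counts in EV and 448 and 369 in OE.

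Genes that respond to amino acid stress went the other way. Of 27 targets or partners of ATF4, 21 fell and 4 rose, with a median of -0.74. The stress regulator DDIT4 fell from 15878 and 15886 normalized counts to 4794 and 4694 (-1.74), the leucine transporter gene SLC7A5 from 31383 and 30951 to 11771 and 11103 (-1.45), and SESN2, a leucine sensor, from 1516 and 1500.0 to 452 and 470.0 (-1.71). STC2 (stanniocalcin 2) was an exception and rose from 4615 and 4823 to 11603 and 11180.4 (1.27). Of 23 aminoacyl-tRNA synthetase genes 12 rose and 8 fell, with a median of 0.20. WARS1, the tryptophanyl enzyme, which interferon gamma also induces, fell from 8694 and 8661 to 1729.6 and 1637 (-2.37), and the next largest fall in that list was -0.60, of the scaffold gene AIMP1.

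Cell cycle genes were grouped by phase. Of 52 genes of mitosis, 40 fell and 9 rose, with a median of -0.55, whereas of 45 genes of DNA replication 23 rose and 13 fell, with a median of 0.20. The phosphatase gene CDC25B fell from 29782 and 29937 normalized counts to 11053 and 10645 (-1.46) and cyclin A2 (CCNA2) from 2744 and 2650.0 to 1140.1 and 1183 (-1.22), and PLK1, a kinase of mitosis, rose from 2981 and 3059.9 to 6366 and 6033 (1.04). Of 29 cyclins, kinases and inhibitors of the first cell cycle phase, 8 rose and 17 fell, with a median of -0.27. Cyclin D1 (CCND1) fell from 1829 and 1928 to 359 and 323 (-2.46) and the inhibitor gene CDKN1A (p21) from 3842 and 3609 to 1158 and 1181 (-1.67).

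In metabolism, sterol genes fell most often. Of 32 genes of sterol synthesis and uptake 22 fell and 6 rose, with a median of -0.48. FDPS, a synthase of isoprenoids, fell from 15177 and 14735 normalized counts to 6026 and 5876 (-1.33), while HMGCS1 rose from 1641 and 1686 to 3297 and 3363 (1.00). Glycolysis and hypoxia genes were even, 13 of 29 higher and 13 lower, with hexokinase 2 (HK2) at -2.73 and the carbonic anhydrase gene CA12 at 2.68. Of 35 NRF2 targets and detoxification genes 12 rose and 17 fell. The AKR1C genes and the GSTM genes are near-identical copies, so the fall of AKR1C3 (768 and 787 in EV, 12 and 8.16 in OE) and the rise of GSTM1 (30.6 and 36.9, 858 and 821) may hold reads of their relatives. The 13 mRNAs made in mitochondria, which mitochondrial ribosomes read, changed little, between -0.50 (MT-CO2) and 0.19 (MT-ND6). Of 31 subunits of the constitutive proteasome 19 fell and 8 rose, with a median of -0.26.

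Genes of the cell surface showed both directions. Of 38 surface antigens and tetraspanins 16 rose and 21 fell, 8 and 16 of them at least 2-fold. THY1 (CD90), a marker of mesenchymal and stem cells, rose from 10379.9 and 9996 normalized counts to 61854 and 59148 (2.57) and the adhesion gene MCAM from 222 and 230.4 to 5015 and 4971 (4.46). The T cell inhibitory ligand CD274 (PD-L1) fell from 148 and 158 to 15 and 24.5 (-2.95), and CD276 (B7-H3), of the same family, rose from 1966 and 2037 to 5223 and 5071 (1.36). ULBP3, a ligand of the natural killer receptor NKG2D, had 0 and 3 counts in EV and 141 and 130 in OE. Among 10 imprinted genes 6 rose and 3 fell. In smaller lists, IGFBP6 fell from 840.3 and 738 to 34.9 and 38.7 and IGFBP4 rose from 2311 and 2399 to 7844 and 7828 among 4 binding proteins of insulin-like growth factors, of which 2 rose and 2 fell. Also, 9 of 11 annexins and galectins fell, with LGALS3 at -2.92, and S100 genes were split, with 3 higher and 3 lower. Of 6 metallothioneins and their regulators 3 rose and 3 fell, and of 4 cancer-testis antigens 1 rose and 1 fell.

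**Figure D3:**
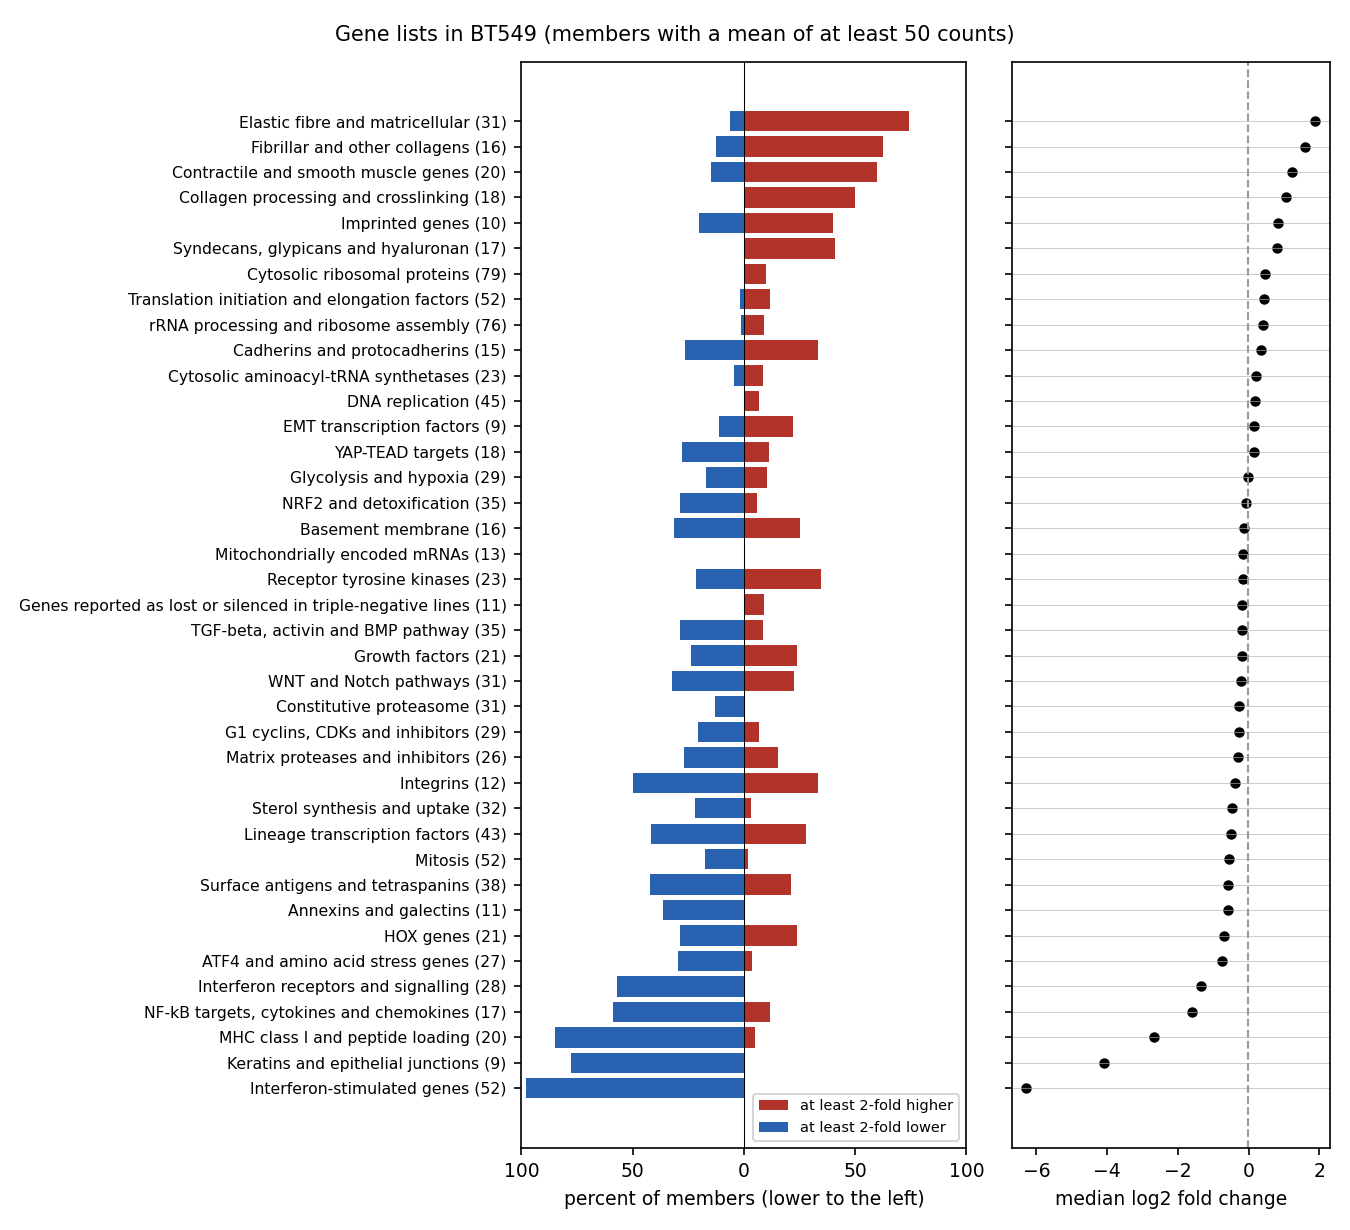
For each gene list with at least 9 members, bars give the percentage of members called at least 2-fold higher and at least 2-fold lower in OE, and points give the median log2 fold change. The interferon-stimulated list lies lowest with a median of -6.28, and the elastic fibre and matricellular list has a median of 1.89, against -0.02 for all 11864 genes.

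The median change was not the same on each chromosome. Genes of chromosome 16 had a median log2 fold change of 0.95 over 569 genes, and 48.3% of them were called at least 2-fold higher against 2.99% lower. Genes of chromosome 9 had a median of -0.72 over 485 genes, and 35.1% were at least 2-fold lower against 6.19% higher. Chromosomes 15 (0.56) and 20 (0.40) also lay above the rest, and 4 (-0.44), 12 (-0.39) and 14 (-0.37) below. The SD of the medians over 23 chromosomes was 0.365, compared with 0.0763 for KD against EV in MDA-MB-231 and 0.134 in SUM159, where the medians ran from -0.22 to 0.10 and from -0.31 to 0.16. Across 461 windows of 25 neighbouring genes, 17 had a median of at least 0.8 and 15 of these were on chromosome 16, which has 22 windows. A median of at most -0.8 was found in 18 windows, 8 of them among the 19 of chromosome 9. Neither KD comparison had a window past 0.8 in either direction. DNA copy number was not measured, and its part in these values was not tested.

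**Figure D4:**
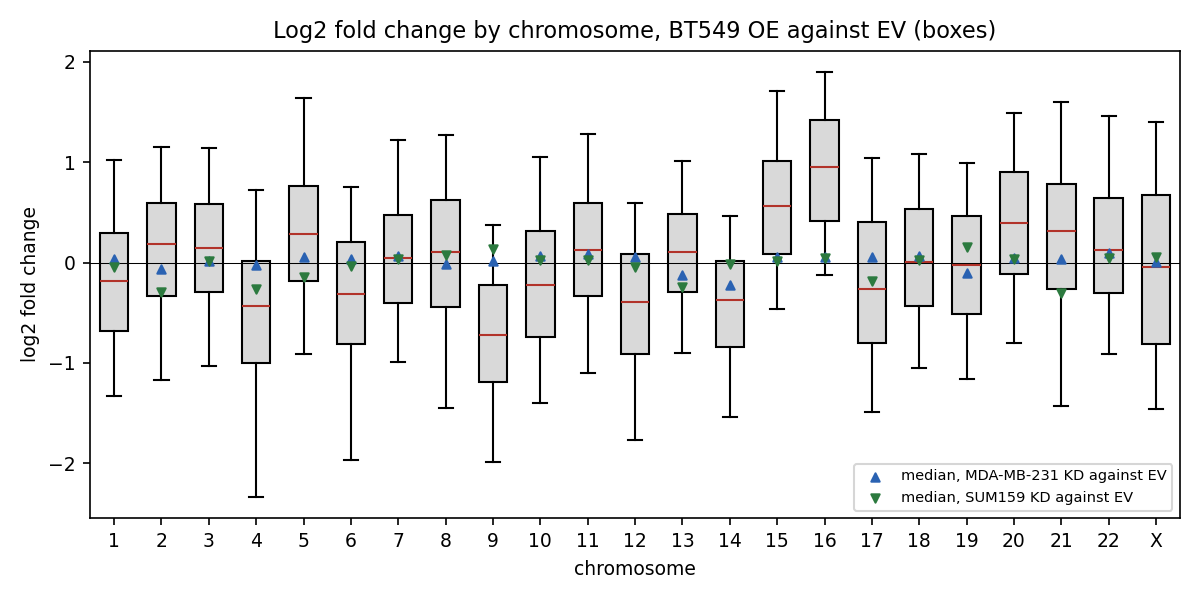
Log2 fold change, OE over EV, of the genes of each chromosome, with the box at the quartiles, the line at the median and whiskers at the 10th and 90th percentiles, and triangles for the medians of the KD comparisons in MDA-MB-231 and SUM159. Chromosome 16 (median 0.95) and chromosome 9 (-0.72) lie farthest from 0, while the KD medians stay between -0.31 and 0.16.

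The chromosomes touched some of the groups above. RPS2 and RPS15A, UTP4 and NIP7 lie on chromosome 16, and PSMB7 and POLR1E on chromosome 9. Without the genes of these 2 chromosomes, an alternative added after the data were seen, the medians were 0.48 for the ribosomal proteins (72 genes), 0.37 for the translation factors (49), 0.36 for rRNA processing (71), -6.52 for the interferon-stimulated genes (51) and 2.03 for the collagens (13), against -0.03 for all 10810 genes left. Of the other lists, those whose median moved by over 1.5 times were the metallothioneins and their regulators from -0.38 to -1.17, with 2 of 6 genes left, cadherins from 0.37 to 0.67, aminoacyl-tRNA synthetases from 0.20 to 0.12, DNA replication from 0.20 to 0.13, genes reported as lost or silenced in such lines from -0.18 to -0.12 and glycolysis and hypoxia from -0.0088 to -0.052. This alternative kept the genes of all other chromosomes, among them 15 (median 0.56) and 20 (0.40). It also kept windows of 25 genes with medians of 1.00 on chromosome 15 and 0.82 on chromosome 17. The part of position elsewhere in the list medians and in single genes was not tested.

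Genes known to be lost in these lines were looked up in both BT549 groups and in the EV libraries of the other lines. BT549 is known to have lost RB1, and MDA-MB-231 the CDKN2A region. RB1 had a mean of 42.2 normalized counts in BT549 EV and 124 in OE, against 843 in MDA-MB-231 EV and 569 in SUM159 EV. CDKN2A had 29058 and 23876 in BT549, 0 in MDA-MB-231 EV and 6.81 in SUM159 EV, and MTAP, next to it, 3491 and 1858, 0 and 0.455. LPAR6, which lies inside RB1, had 296 and 549 in BT549, 0 in MDA-MB-231 EV and 70.7 in SUM159 EV. Both BT549 groups had reads of CDKN2A and MTAP that the other lines lacked or nearly lacked, while between EV and OE RB1 had a log2 fold change of 1.56 ± 0.25 (adjusted p = 6.2e-06) and MTAP one of -0.91 ± 0.05 (adjusted p = 1.7e-12). Beyond these genes, whether both populations share their identity and copy number was not tested. Across the 16538 genes, Pearson's r of log2 values was 0.885 to 0.886 between EV and OE libraries of BT549, against 0.985 between EV and KD of MDA-MB-231 and 0.958 to 0.960 in SUM159, given as a description since genes are not independent replicates.

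Marker sums of cell types are given as levels, with no test. Fibroblast markers, 9 genes of which 6 reached a mean of 50 counts, summed to 756 to 777 CPM (counts scaled to the library size) in the EV libraries and 6461 to 6688 in the OE libraries, and COL1A1, COL1A2, COL3A1 and THY1 among them are also matrix or surface genes described above. Of the remaining fibroblast markers, PDGFRA rose (log2 fold change 5.12), and decorin (DCN) and lumican (LUM) had 0 counts in both EV libraries. In OE, DCN had 162 and 170 counts and LUM 72 and 66. PDGFRB, with 5 and 8 counts in EV and 10 and 12 in OE, and FAP (0.75) did not pass the test. Mesenchymal tumour cell markers, all 8 present, summed to 3723 to 3747 CPM in EV and 3573 to 3634 in OE, a sum whose members moved in opposite directions, SNAI2 (log2 fold change 3.23) and SPARC (1.94) up and VIM (-1.47) and AXL (-1.37) down. Luminal markers summed to 184 to 189 and 140.1 to 144, neural ones to 1292 to 1319 and 675 to 702, and melanocytic ones to 9.11 to 11.2 and 2.92 to 3.65. Basal epithelial markers summed to 3.53 to 5.00 CPM in EV and 0.615 to 0.787 in OE, endothelial ones to 0.695 to 0.870 and 1.25 to 1.47, and leukocyte ones to 2.06 to 2.59 and 11 to 11.5. The part of a change in cell types in the results was not tested.

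The genes seen in 1 BT549 group alone were compared with the other lines. Of the 86 seen in OE alone, 20 had at least 100 counts in both EV libraries of MDA-MB-231 and 18 in those of SUM159, 12 of them in both lines, whereas 27 had at most 3 counts in all of these libraries. TIMP3 had a mean of 2665 normalized counts in MDA-MB-231 EV and 2975 in SUM159 EV, while HS6ST2 and ST8SIA2 were listed at 0 in both. Of the 64 seen in EV alone, 27 had at least 100 counts in both EV libraries of MDA-MB-231 and 27 in those of SUM159, 16 of them in both lines, and 8 had at most 3 counts in all of these libraries. CASP4 had 2501 and 1796, ITGB4 3627 and 2530.0, and CMPK2 was listed at 0 in both. The unit of those columns was not fully certain, since some of their cells hold a mark in place of a number.

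**Figure D5:**
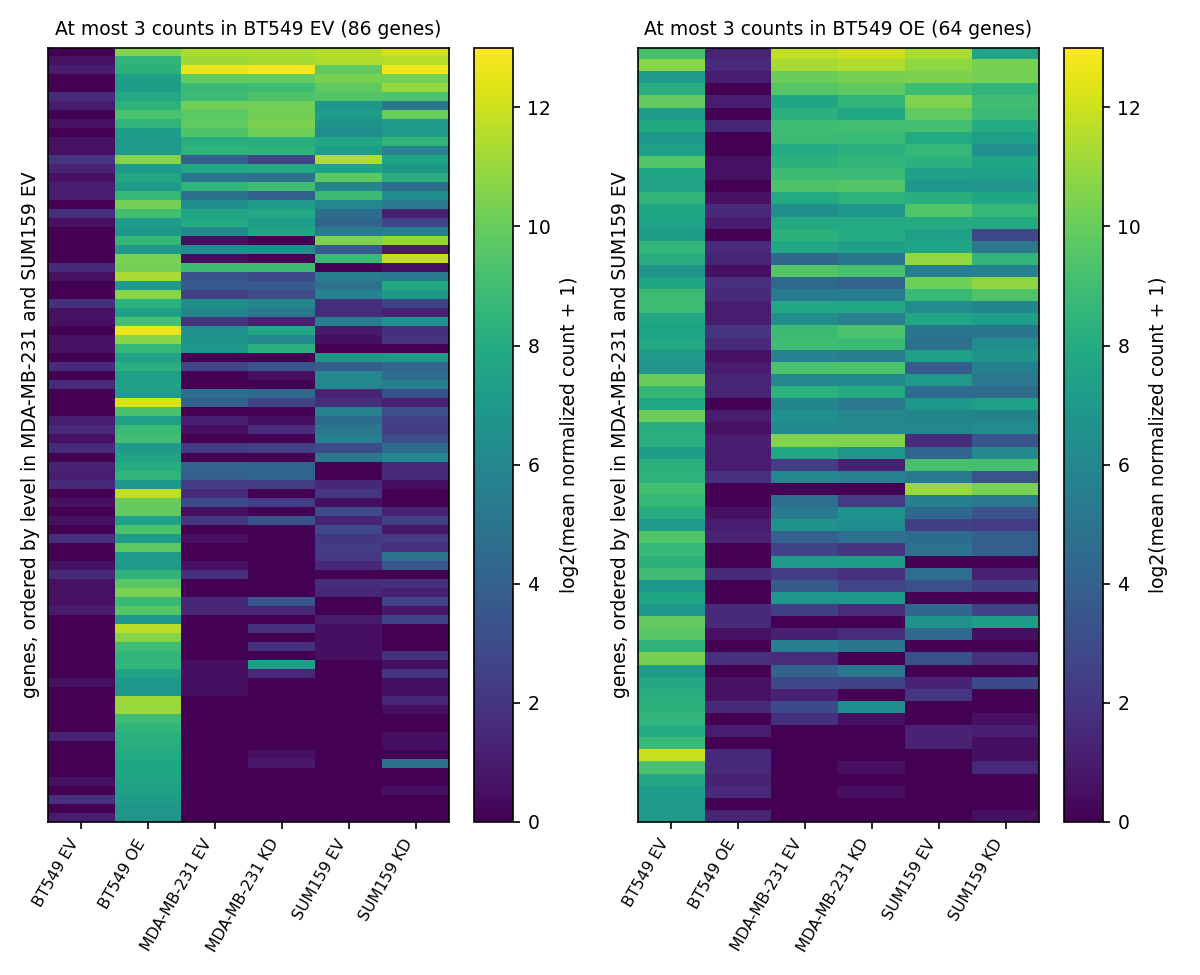
Heatmaps of the mean level of the 86 genes seen in OE alone and the 64 seen in EV alone over the 6 groups of the study, with colour for log2 of the mean normalized count plus 1. Rows that are dark in 1 BT549 group differ among the other lines, with 12 of the 86 and 16 of the 64 above 100 counts in both.

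Well-counted genes with little change close the description. The genes with the most counts among those with an absolute log2 fold change under 0.1 included HSPB1, GNB1, TUBB, RHOC, MT-ND5, NUCKS1, YBX1, HDGF and PSAP. The small heat shock protein gene HSPB1 had 29154 and 28494 normalized counts in EV and 31178 and 28919.5 in OE (0.06), the tubulin gene TUBB 26892 and 26015 against 27169 and 26472 (0.02), and YBX1, which binds mRNA, 21779.6 and 22624 against 21547 and 20464 (-0.08). Of these, GNB1, HDGF and YBX1 passed the test.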

How the data were processed

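Polysome-associated RNA of 12 libraries was sequenced, of which the 4 BT549 libraries were compared. The library kit is named differently: stranded and used after removal of rRNA in the study's methods, oligo(dT)-based in the labels. Per the submitters' notes and methods, the authors used Trimmomatic for trimming, HISAT2 for alignment (GRCh38), SAMtools to remove duplicates, and Partek. The counting tool and its strand setting are not given in the sources used here. The deposited table holds expected counts per transcript, not normalized, and lists no transcript at 0 in all 4 BT549 libraries. The 8 columns of the other lines are listed as the same quantity, but hold a mark in place of a number in 5.08% of rows. The mark was taken as 0, and it leaves the unit of these columns not fully certain.

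Transcripts were matched to GENCODE 44 (79.6% of them, with 99.36% to 99.41% of the counts of the BT549 libraries), summed per symbol (111 symbols join more than 1 gene) and rounded. Genes were kept by filterByExpr, then TMM-scaled, and the quasi-likelihood test of edgeR 4.0.16 (R 4.3.3) was applied to all 12 libraries with a mean for each of the 6 groups, which leaves 6 residual degrees of freedom, with Benjamini-Hochberg adjustment over 16538 genes. Calls needed an adjusted p under 0.05. On counts simulated for this comparison over 16538 genes, the test recovered 58% of changes of 0.25 on the log2 scale, 86% of 0.5 and 100% of 1 and 2, and 5.49% of calls were of unchanged genes. The simulation changed few genes, all with a mean of at least 50 counts, and gave all genes the same spread. These shares therefore need not hold for the measured counts, where most genes were called. Tables and figures were made with Python 3.11.15, pandas 2.3.3, numpy 2.4.6 and matplotlib 3.10.9. Counting intervals are exact (Clopper-Pearson on the split of reads between groups).

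The members and the 46 gene lists were chosen with earlier results of these data known, and lists are described by counts and medians with no set test. Genes were named by rule: TRMT112, its partners and translation factors; the 12 genes per direction with the largest fold over a floor of 3 counts among those near 0 in 1 group; the 10 per direction with the largest change among genes with at least 50 normalized counts in both groups; up to 4 called members per list with the largest change; markers and genes lost in such lines; genes at the limits; and the 10 most counted genes with a log2 fold change under 0.1. Further list members were named as examples after their values were seen. As alternatives, DESeq2 1.42.0 (Wald test), RLE factors, scaling by library size, omission of the filter, the 4 libraries alone, a replicate block, marked rows left out, single transcripts, glmTreat, other limits, each library left out and, added later, lists without chromosomes 9 and 16 were run. The replicate numbers did not pair the libraries. No column of per-sample values was left unused. Some genes that the rule names are not reported here.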

Additional observations from a re-analysis of the deposited data

How the results depend on the processing

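Under RLE factors, library size only, DESeq2, no filter, the 4 libraries alone and marked rows left out, each count of called genes stayed within 1.5 times its value in the report, and RLE and library size moved the median log2 fold change by -0.0059 and 0.020, which turned the sign of 1 list median, that of glycolysis and hypoxia, from -0.0088 to 0.011 under library size only. The replicate block gave 4792 higher and 4947 lower genes among the 11864 (5826 and 5743 of all tested), and TRMT112 stayed at 0.48. Replicate numbers do not pair these libraries (correlation of deviations 0.024 over 11864 genes), so the block is given only here. Tested as single transcripts, 2-fold calls were 4411 higher and 4772 lower over all, 2914 and 3140 with a mean of at least 50 counts, and 161 and 174 transcripts were near 0 in EV or OE alone. There, MAGED2 had 0.62 and STK11 0.022, reversed, since a single transcript was tested in place of the sum. Against a log2 fold change of 1, glmTreat called 1901 higher and 1871 lower. With limits of 0 and 100 counts, 42 and 18 genes were near 0 in EV or OE alone, and with 10 and 100, 146 and 129. Leaving out each library gave 5415 to 5488 higher and 5405 to 5484 lower genes of all tested (2477 to 2524 and 2446 to 2466 at least 2-fold), 4509 to 4568 and 4689 to 4745 of the 11864 (1584 to 1621 and 1730 to 1756 at least 2-fold), and 0.47 to 0.48 for TRMT112, the lone library being assumed to vary like the other groups. Among the 277 named genes, 5 to 11 lost the call when a library was left out, and 24 did as single transcripts. In simulated data 58% of changes of 0.25 on the log2 scale were recovered with 2 libraries per group at this depth. Those data had few changed genes and the same spread for all genes, so the share need not hold for the measured counts.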
